A study of Mus musculus with 6 samples.

Results

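The genes described are those that encode the proteins of the mitochondrial ribosome, measured in mouse liver. They were chosen by name: every protein-coding gene of the deposited table whose symbol is Mrpl or Mrps followed by a number, plus Malsu1, with 1 row per symbol. This gave 79 genes of the 54600 rows in the table, namely 49 Mrpl genes, 29 Mrps genes and Malsu1. All 79 passed the filter for testing, which 11440 rows of the table passed.

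The mitochondrial ribosome makes the few proteins that mitochondrial DNA encodes, all of them parts of the respiratory chain and the ATP synthase. Its ribosomal RNAs come from mitochondrial DNA, while every protein of it is encoded in the nucleus, made in the cytosol and imported. Some of these proteins have counterparts in bacterial ribosomes and others were acquired in mitochondria. Hepatocytes are rich in mitochondria, and the roles and positions given below are those known from human, porcine or bacterial ribosomes.

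The series set livers of mice with a hepatocyte-specific knockout of HIF-2α (KO) against wild-type livers (WT), to ask how this transcription factor acts in steatotic liver disease. There were 3 libraries labelled KO and 3 labelled WT, all from mice given a high-fat diet, HFD, for 16 weeks. The knockout is restricted to hepatocytes, so the other cells of these livers keep the gene; the sources used here give no Cre driver, strain, sex or age. The labels do not say that each library came from a separate animal, so the spread that p-values measure may be technical.

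Epas1, the gene of HIF-2α (chr17:86753700-86833410, plus strand), had 26.6, 35.1 and 29.4 TPM in the libraries labelled KO and 23.8, 26.0 and 21.01 TPM in those labelled WT. TPM is transcript abundance per length, scaled so that all libraries have an equal total. All libraries labelled KO were above all those labelled WT, where a loss of the gene would give lower values (log2 difference 0.34, SE 0.15, limma, Benjamini-Hochberg adjusted p = 0.993). These are values for the whole gene, in which removal of single exons cannot be seen, and the groups are called by their labels below. At 1 TPM or more stood 11013 to 11708 genes per library, the 20 most abundant genes took 41.2% to 46.9% of the TPM, and mitochondrially encoded genes took 16.2% to 24.5%. The 7 hepatocyte markers together had 56005, 69019 and 50992 TPM in the libraries labelled KO and 45635, 55476 and 48010 TPM in those labelled WT, which overlap. Of the 8 stellate cell and fibroblast markers, the 7 tested all had a positive log2 difference, as did 74.5% of all genes tested. Every KO library was above every WT library in 3 of these 7 (8.23% of all genes tested) and in the untested Col1a1. The sum over the list was 141 to 163 TPM in KO and 117 to 140 TPM in WT. Positive differences were also found for 6 of 7 hepatocyte, 6 of 7 Kupffer cell and macrophage and 6 of 7 endothelial markers. Of the tested cholangiocyte markers 2 of 2 were positive, and of the neutrophil markers 1 of 2. Among these other lists, 1 tested marker, an endothelial one, had every KO library above every WT library, as did the untested cholangiocyte marker Epcam. Summed over their lists, Kupffer cell and macrophage markers had 196 to 215 TPM in KO and 161 to 227 TPM in WT, endothelial markers 96.6 to 109 TPM in KO and 94.4 to 101 TPM in WT, and cholangiocyte markers 34.9 to 56.2 TPM in KO and 24.9 to 35.3 TPM in WT. Nearly all of the cholangiocyte sum was Spp1, with 31.7 to 52.8 TPM in KO and 22.1 to 33.2 TPM in WT. Krt19, Krt7, Epcam and Sox9 had at most 1.56 TPM in any library. T, NK and B cell markers summed to 1.25 to 2.39 TPM in KO and 0.843 to 2.87 TPM in WT, and neutrophil markers to 5.92 to 6.87 TPM in KO and 2.19 to 10.7 TPM in WT. No marker was listed at 0 in all 6 libraries, and the part of these markers in the values below was not tested. In bulk tissue, fewer cells of a type and less RNA per cell cannot be told apart.

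None of the 79 genes passed the test for a difference between the libraries labelled KO and WT, and most were bounded to small differences. On log2(TPM + 1), limma called 0 of them higher and 0 lower at a Benjamini-Hochberg adjusted p below 0.05, against 0.0% of all genes tested called higher and 0.00874% (1 gene) called lower. Their smallest adjusted p was 0.993. At an unadjusted p below 0.05, 3 were higher (Malsu1, Mrpl47 and Mrpl41) and 0 lower, where 2.76% of all genes were higher and 0.385% lower, so 3 of 79 is close to the background. With the replicate number as a block this count was 7 of 79, among 707 of all genes against 360 without the block, and still no gene was called. Every KO library lay above every WT library in 6 of the 79 (8.23% of all genes tested), and below in 0 (0.857% of all genes).

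Of the 79 limma 95% intervals, each taken on its own, 76 included no difference, 76 excluded a 2-fold difference in either direction and 66 excluded a 1.5-fold difference. These intervals hold for the TPM as deposited and do not include the shift that another scaling of the libraries brings. The log2 differences of 48 genes were under 0.1 in size, and those of 5 were 0.3 or more. The median log2 difference was 0.07 (quartiles 0.01 and 0.17), against a median of 0.09 over all genes tested. A value above 0 was found for 60 of 79 genes (75.9%), much as for all genes tested (74.5%). The direction turned with the scaling of the libraries: with median-ratio scaling, which moved the median of all genes from 0.09 to -0.00, 26 of 79 genes were above 0 (49.6% of all genes) and their median was -0.03. Without the library labelled WT replicate 3, 40 of 79 were above 0 (59.3% of all genes).

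**Figure D1:**
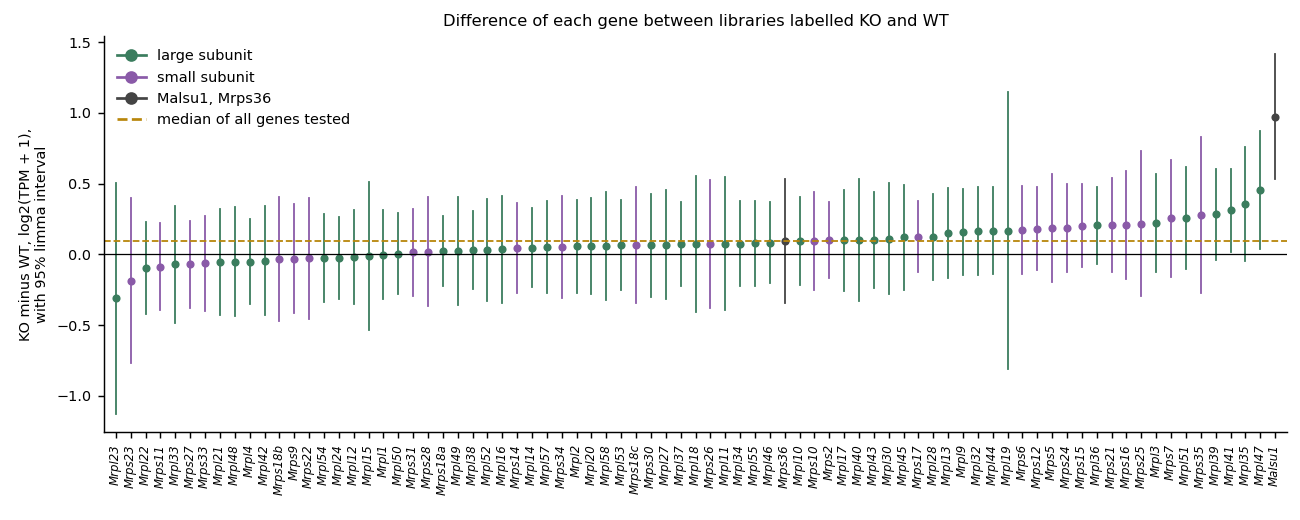
Log2 difference, KO minus WT, of log2(TPM + 1) for each of the 79 genes in rising order, with its 95% limma interval as a vertical line; colours give the subunit and the dashed line the median over all genes tested, 0.09. Malsu1 stands at the right end with 0.97, Mrpl47 follows with 0.45, and 76 of 79 intervals include 0.

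By subunit and origin, given as a description with no test, the medians ran from -0.01 to 0.15. For all genes tested the median was 0.09, with 74.5% above 0. Among the 30 large-subunit proteins with a bacterial counterpart the median log2 difference was 0.07 and 21 were above 0. The 21 large-subunit proteins acquired in mitochondria had a median of 0.06, with 18 above 0. In the small subunit, the 16 proteins with a bacterial counterpart had a median of 0.15, with 14 above 0, and the 10 acquired in mitochondria a median of -0.01, with 5 above 0. The class follows the ribosome name, so Mrps18a (mL66) and Mrps18b (mS40), though descended from bacterial S18, count as acquired in mitochondria. With median-ratio scaling these 4 medians were -0.03, -0.05, 0.04 and -0.11, and with quantile normalization -0.02, -0.02, 0.05 and -0.10. The median of all genes tested was -0.00 with either scaling. Single libraries moved these groups too, and all genes tested moved with them. Without WT replicate 3, 12 of 30 large-subunit genes with a bacterial counterpart were above 0 (median -0.02) and 11 of 21 of those acquired in mitochondria (median 0.01), and in the small subunit 12 of 16 (median 0.08) and 4 of 10 (median -0.01). Of all genes tested 59.3% were then above 0 (median 0.04). Without WT replicate 1, 8 of the 10 small-subunit genes acquired in mitochondria were above 0 (median 0.12), against 78.9% of all genes tested (median 0.14). Without KO replicate 1, 2 of the 10 were above 0 (median -0.08), against 66.6% of all genes tested (median 0.08).

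Mean levels over the 6 libraries ran from 2.23 TPM (Mrpl23) to 113 TPM (Mrps21). Their median was 26.9 TPM, against 7.65 TPM for all genes tested. A mean of at least 10 TPM was reached by 74 of the 79 genes, 50 TPM by 11 and 100 TPM by 1. Large-subunit genes had a median of 28.5 TPM and small-subunit genes of 24.8 TPM. Genes with a bacterial counterpart had a median of 32.5 TPM (n = 46) and those acquired in mitochondria of 24.2 TPM (n = 31). The order of the levels was nearly the same in every library: across the 79 genes, Spearman's rho between any pair of libraries was 0.949 to 0.978, a description of values that share gene lengths and one liver transcriptome. Within a group the median coefficient of variation was 12.4% in KO and 11.3% in WT, and most neighbours in the order do not differ beyond their spread: in 3 of 78 neighbouring pairs the means differed by more than the larger SD over the 6 libraries. The highest library exceeded the lowest 1.37-fold for the median gene and at least 2-fold for 4 genes, which were Mrpl23, Malsu1, Mrpl19 and Mrps23.

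**Figure D2:**
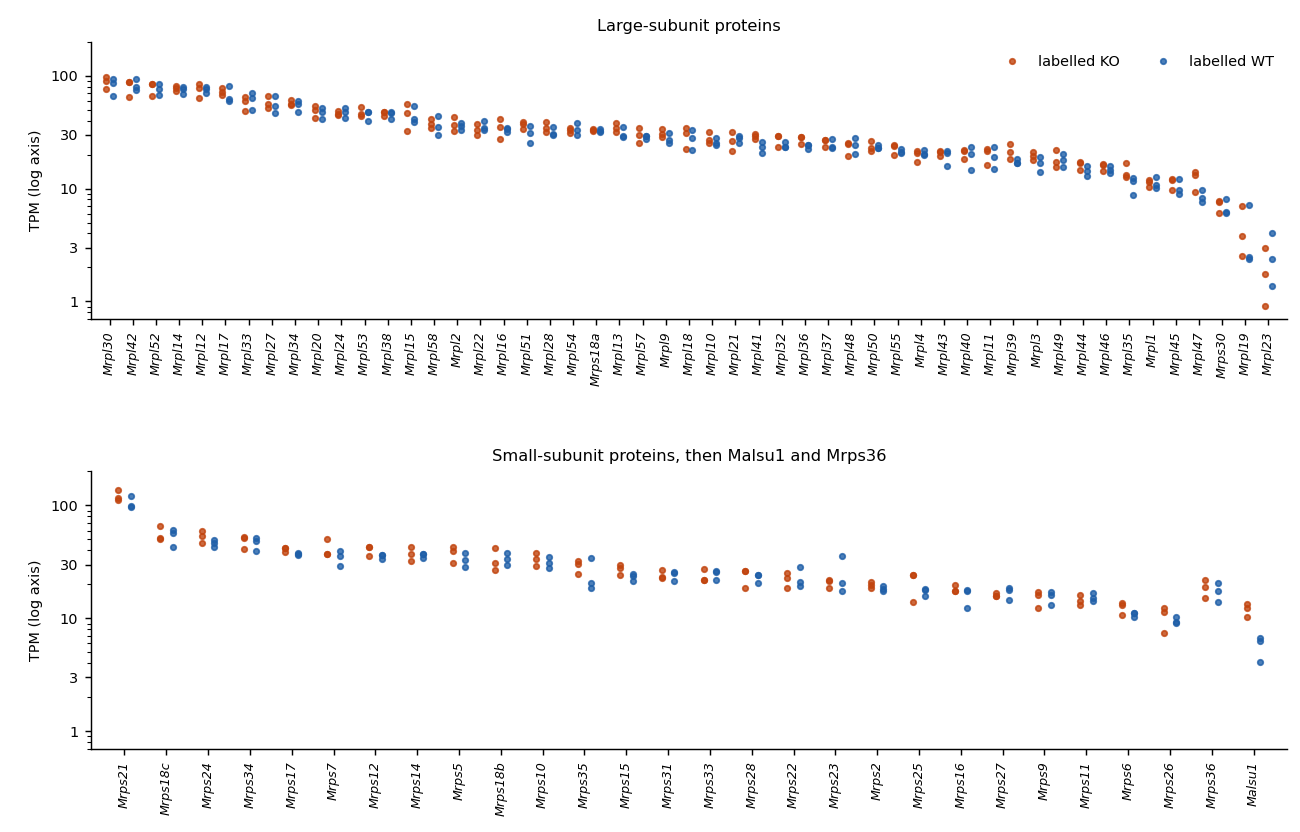
TPM on a log axis of each of the 79 genes, 1 point per library, libraries labelled KO to the left of those labelled WT, with genes in falling order of their mean within the large subunit (above) and the small subunit (below, with Mrps36 and Malsu1 at the right). The points of both groups mingle for most genes, and the columns that span at least 2-fold are Mrpl23, Malsu1, Mrpl19 and Mrps23.

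In the large subunit the most abundant transcripts were Mrpl30, Mrpl42, Mrpl52 and Mrpl14. Mrpl30 (uL30m, with a bacterial counterpart) had 96.5, 89.5 and 76.1 TPM in KO and 92.4, 85.6 and 65.8 TPM in WT. The groups overlap, and in both the first library is highest and the third lowest (log2 difference 0.11, SE 0.17). Mrpl42 (mL42, acquired in mitochondria) had 87.6, 88.4 and 64.7 TPM in KO and 78.7, 93.4 and 74.7 TPM in WT. KO replicate 3 is the lowest and WT replicate 2 the highest of these (log2 difference -0.04, SE 0.17). Mrpl52 (mL52, also mitochondrial) had 84.8, 83.6 and 65.4 TPM in KO and 84.7, 67.4 and 76.3 TPM in WT, which overlap over nearly their whole range (log2 difference 0.03). Mrpl14 (uL14m) lies at the face where the subunits join and is the docking site of Malsu1, as known from human mitochondrial ribosomes. It had 76.9, 81.7 and 72.5 TPM in KO and 76.3, 79.02 and 68.4 TPM in WT, and the groups overlap (log2 difference 0.05, SE 0.12, and -0.06 with median-ratio scaling).

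In the small subunit Mrps21 (bS21m) had the highest level of all 79 genes, with 113, 136 and 116 TPM in KO and 96.6, 121 and 98.7 TPM in WT. The second library is the highest in each group, and WT replicate 2 lies above KO replicates 1 and 3 (log2 difference 0.21, SE 0.14). Mrps24 (uS3m), whose bacterial counterpart lies at the entry of the messenger RNA, had 59.4, 53.2 and 46.8 TPM in KO and 46.6, 49.3 and 43.2 TPM in WT, overlapping at the low end of KO (log2 difference 0.19, SE 0.13). Mrps34 (mS34, acquired in mitochondria) had 52.1, 51.2 and 41.2 TPM in KO and 51.1, 48.7 and 39.4 TPM in WT, with the third library lowest in both groups (log2 difference 0.05). Its level is uncertain, as its exons overlap those of Mapk8ip3 on the opposite strand (63.4% of its exon bases) and of Nme3 on the same strand (37.0%). Mapk8ip3 had a mean of 2.7 TPM and Nme3 of 19.7 TPM.

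The genes descended from the bacterial S18 protein are a small family whose members sit at different sites. Mrps18c (bS18m), in the small subunit at the place of the bacterial protein, had 65.8, 51.8 and 50.1 TPM in KO and 61.0, 56.5 and 43.3 TPM in WT (log2 difference 0.06). Mrps18b (mS40), elsewhere in the small subunit, had 41.9, 31.0 and 26.7 TPM in KO and 37.8, 29.5 and 33.6 TPM in WT (log2 difference -0.03). Its exons overlap those of Gm16279 on the opposite strand (30.5% of its exon bases), which had a mean of 0.261 TPM. Mrps18a (mL66), which despite its name belongs to the large subunit, had 33.6, 32.7 and 32.6 TPM in KO and 33.6, 31.6 and 32.2 TPM in WT (log2 difference 0.02, and -0.09 with median-ratio scaling). Mrps18c was the highest of the 3 in every library, the groups overlapped for each of them, and Mrps18a varied least.

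Malsu1 had the largest difference of the 79 genes and is not itself a lasting part of the ribosome. It is an assembly factor, known from human cells to bind the immature large subunit together with the acyl carrier protein Ndufab1 and to keep the small subunit from joining. Malsu1 (ENSMUSG00000029815, chr6:49073795-49086751, plus strand) had 13.3, 10.2 and 12.3 TPM in KO and 6.64, 6.25 and 4.13 TPM in WT. The lowest KO library was above the highest WT library, with means of 11.97 ± 1.56 TPM in KO and 5.67 ± 1.35 TPM in WT (SD, n = 3 each), a ratio of 2.11. The log2 difference was 0.97 (SE 0.19, 95% interval 0.53 to 1.41), and its p was the 8th smallest of all genes tested. It did not pass the correction (adjusted p = 0.993, Benjamini-Hochberg, and 0.724 to 0.9999 over the 16 alternatives), and a two-sided exact permutation test over the libraries gave p = 0.10, which is the lowest possible for 3 against 3. Its log2 difference was 0.67 to 1.09 under the alternatives, so it was positive under each of them. Malsu1 lies outside the Mrpl and Mrps name pattern and was added to the list by name. The list was chosen with earlier results of these data known, so the rank and p-values of Malsu1 are descriptions and no independent support.

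The exons of Malsu1 overlap those of Igf2bp3 on the opposite strand over 1529 of 3777 bases, and 53.4% of the 50-base words of its transcript also occur in that gene. Igf2bp3 had at most 0.241 TPM in any library. The sources used here do not say whether reads were counted by strand. Ndufab1, the partner of Malsu1, had 173, 168 and 132 TPM in KO and 137, 157 and 118 TPM in WT, and these groups overlap (log2 difference 0.20, SE 0.16). Mrpl14, on which the complex docks, was level as given above.

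**Figure D3:**
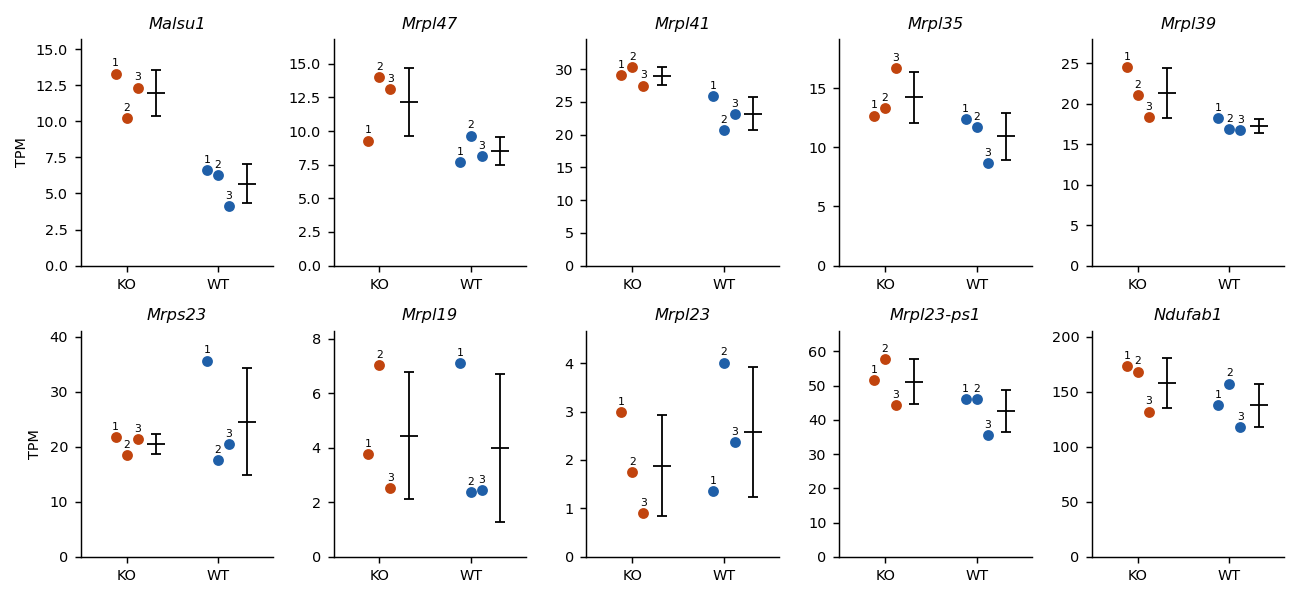
TPM in each library of 10 genes, with the libraries labelled KO left and those labelled WT right; the small numbers are replicate numbers and the bar is mean and SD (n = 3). The groups are apart for Malsu1, Mrpl41, Mrpl35 and Mrpl39 and overlap for the others.

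After Malsu1, the smallest p-values with a positive difference belonged to 4 large-subunit proteins. Mrpl47 (uL29m), whose bacterial counterpart sits beside the exit of the peptide tunnel, had 9.28, 14.0 and 13.1 TPM in KO and 7.67, 9.67 and 8.16 TPM in WT. KO replicate 1 lies below WT replicate 2, so the groups overlap (log2 difference 0.45, SE 0.18). Mrpl41 (mL41) had 29.1, 30.3 and 27.5 TPM in KO and 25.8, 20.7 and 23.1 TPM in WT, with the groups apart (log2 difference 0.31, SE 0.13). Mrpl35 (bL35m) had 12.7, 13.3 and 16.7 TPM in KO and 12.4, 11.7 and 8.69 TPM in WT. The groups are narrowly apart, and the third library is the highest in KO and the lowest in WT (log2 difference 0.36, SE 0.17). Mrpl39 (mL39), which resembles a threonyl-tRNA synthetase, had 24.6, 21.1 and 18.4 TPM in KO and 18.2, 16.9 and 16.7 TPM in WT, apart by little between KO replicate 3 and WT replicate 1 (log2 difference 0.28, SE 0.14).

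None of these 4 passed the correction (limma, Benjamini-Hochberg adjusted p = 0.993 each). Mrpl47 shares exon bases with Ndufb5 and Actl6a on the opposite strand (13.9% and 10.2% of its exon bases), and Ndufb5 was far more abundant, with a mean of 139.6 TPM. The other genes with all KO libraries above all WT libraries, named after their values were seen, were Mrpl36 and Mrps17. Mrpl36 (bL36m) had 28.5, 28.6 and 24.97 TPM in KO and 24.0, 24.1 and 22.5 TPM in WT (log2 difference 0.21). Mrps17 (uS17m) had 41.7, 41.7 and 38.7 TPM in KO and 38.1, 37.1 and 36.5 TPM in WT (log2 difference 0.12).

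On the lower side no gene had separated groups. Mrps23 (mS23) had 21.8, 18.5 and 21.4 TPM in KO and 35.6, 17.6 and 20.4 TPM in WT. WT replicate 1 stands alone, and without it the log2 difference of -0.19 (SE 0.25) became 0.11. Mrpl22 (uL22m), which lines the peptide tunnel in bacteria, had 37.4, 29.7 and 32.9 TPM in KO and 39.8, 34.2 and 32.8 TPM in WT (log2 difference -0.09, SE 0.14). The groups share most of their range. Mrps11 (uS11m) had 16.0, 14.1 and 13.1 TPM in KO and 16.9, 15.2 and 14.1 TPM in WT, with replicate 1 highest and replicate 3 lowest in both groups (log2 difference -0.09, SE 0.13). Mrps27 (mS27), a pentatricopeptide repeat protein, had 16.8, 15.7 and 15.8 TPM in KO and 17.9, 14.6 and 18.6 TPM in WT, the KO values lying inside the WT range (log2 difference -0.07, SE 0.13). Mrpl12 (bL12m), the protein of the flexible stalk that recruits translation factors, was close to level, with 84.7, 77.1 and 62.8 TPM in KO and 78.8, 76.6 and 70.8 TPM in WT (log2 difference -0.02).

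Mrpl58 and Mrps30 encode large-subunit proteins, Mrps36 carries a ribosomal name but belongs to another complex, and Mrps35 of the small subunit varied widely. These genes were picked for their role or after their values were seen. Mrpl58 (mL62), a peptidyl-tRNA hydrolase related to release factors that is built into the large subunit, had 37.2, 34.4 and 40.9 TPM in KO and 34.9, 44.03 and 30.01 TPM in WT (log2 difference 0.06, SE 0.16). The KO values lie inside the WT range. Mrps30 (mL65), which like Mrps18a sits in the large subunit, had 7.69, 7.59 and 6.12 TPM in KO and 8.10, 6.10 and 6.198 TPM in WT (log2 difference 0.06, SE 0.16). Mrps36 is known as a subunit of the 2-oxoglutarate dehydrogenase complex rather than of the ribosome, and it had 19.0, 21.7 and 15.1 TPM in KO and 17.6, 20.5 and 13.9 TPM in WT. Replicate 2 was highest and replicate 3 lowest in both groups (log2 difference 0.10, SE 0.19). Mrps35 (mS35) had 30.3, 32.3 and 24.7 TPM in KO and 34.6, 18.7 and 20.5 TPM in WT. WT replicate 1 is the highest of all 6 libraries, as it was for Mrps23, while the other WT libraries are the lowest (log2 difference 0.28, SE 0.24). The groups overlapped for each of the 51 genes not described singly here, whose log2 differences ran from -0.07 (Mrpl33) to 0.25 (Mrpl51), with 40 above 0, and whose mean levels ran from 9.995 TPM (Mrps26) to 69.9 TPM (Mrpl17).

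The most negative value belonged to Mrpl23 (uL23m, beside the peptide tunnel exit in bacteria), and it is uncertain. Mrpl23 had 2.99, 1.76 and 0.906 TPM in KO and 1.36, 4.01 and 2.38 TPM in WT, overlapping widely (log2 difference -0.31, SE 0.35). Its processed pseudogene Mrpl23-ps1 had 51.5, 57.7 and 44.3 TPM in KO and 46.1, 46.0 and 35.6 TPM in WT. Of the 516 coding bases of Mrpl23, 421 align to the pseudogene in 1 run with 421 identical, and 66.7% of the 50-base words of its transcript occur in the pseudogene, so reads from there cannot be told apart. The following 150 coding bases, 96 to 245 of Mrpl23 (GENCODE M21, GRCm38; Mrpl23 at chr7:142532686-142540747, plus strand, and Mrpl23-ps1 at chr2:74591330-74591909, minus strand), are shown because the same letters stand in both.
Mrpl23: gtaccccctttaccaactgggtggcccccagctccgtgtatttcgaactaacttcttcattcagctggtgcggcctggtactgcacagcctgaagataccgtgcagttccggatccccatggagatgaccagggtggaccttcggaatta
Mrpl23-ps1: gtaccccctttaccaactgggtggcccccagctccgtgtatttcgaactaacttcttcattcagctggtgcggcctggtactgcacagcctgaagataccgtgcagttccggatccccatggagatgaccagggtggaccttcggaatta

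Added together, Mrpl23 and its pseudogene had 54.5, 59.4 and 45.2 TPM in KO and 47.5, 49.98 and 37.9 TPM in WT. The sum has a log2 difference of 0.23, opposite in sign to that of Mrpl23 alone, and its groups overlap. At the sum, the gene would stand among the more abundant of the 79 rather than as the lowest. The next lowest gene, Mrpl19 (bL19m, at a bridge between the subunits in bacteria), had 3.77, 7.03 and 2.51 TPM in KO and 7.12, 2.37 and 2.46 TPM in WT. In each group 1 library is well above the others, KO replicate 2 and WT replicate 1 (log2 difference 0.17, SE 0.42). Its transcript shares 38.7% of its 50-base words with Gcfc2, which had 0.48 to 1.13 TPM. In all, 18 of 79 genes shared at least 20% of their words with another gene and 29 shared none. Among the 61 genes under 20% the median log2 difference was also 0.07, with 48 above 0. The gene with the largest share was Mrpl53, all of whose words occur in the gene model Gm42688 (0.344 to 0.669 TPM).

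Within each group, replicate 1 was mostly the highest library for these genes and replicate 3 the lowest. Their summed TPM was 2819, 2648 and 2390 in KO and 2653, 2532 and 2241 in WT, which overlap (means 2619 ± 216 in KO and 2475 ± 212 in WT, SD, n = 3 each). The large-subunit genes summed to 1870, 1772 and 1599 TPM in KO and 1792, 1720 and 1505 TPM in WT. The small-subunit genes summed to 917, 844 and 764 TPM in KO and 837, 785 and 718 TPM in WT. Libraries were also read in pairs by replicate number, a pairing taken from the correlation of these same libraries and not from the labels. The KO sum was then higher in each of the 3 pairs, by 166, 116 and 149 TPM. The large-subunit sum was higher by 78.6, 51.8 and 94.5 TPM and the small-subunit sum by 79.7, 59.3 and 45.5 TPM. The paired libraries were matched because they vary together, so this shared sign is a description and no test. Unpaired, all 3 sums overlap between the groups. The median log2 difference of the 79 genes within these pairs was 0.11, 0.06 and 0.09, and that of all genes tested was 0.03, 0.12 and 0.13. KO replicate 1 held the highest value of its group for 57 of 79 genes and KO replicate 3 the lowest for 53, while WT replicate 1 held the highest for 52 and WT replicate 3 the lowest for 56. All genes tested shifted in the same direction in each library. The median deviation of the 79 genes from their group mean (log2) was 0.12, 0.01 and -0.12 in KO and 0.10, 0.03 and -0.12 in WT, and that of all genes tested was 0.03, 0.05 and -0.07 in KO and 0.09, 0.02 and -0.11 in WT. The 79 genes minus all genes gave 0.09, -0.04 and -0.05 in KO and 0.01, 0.01 and -0.00 in WT, so in WT both shifted alike.

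**Figure D4:**
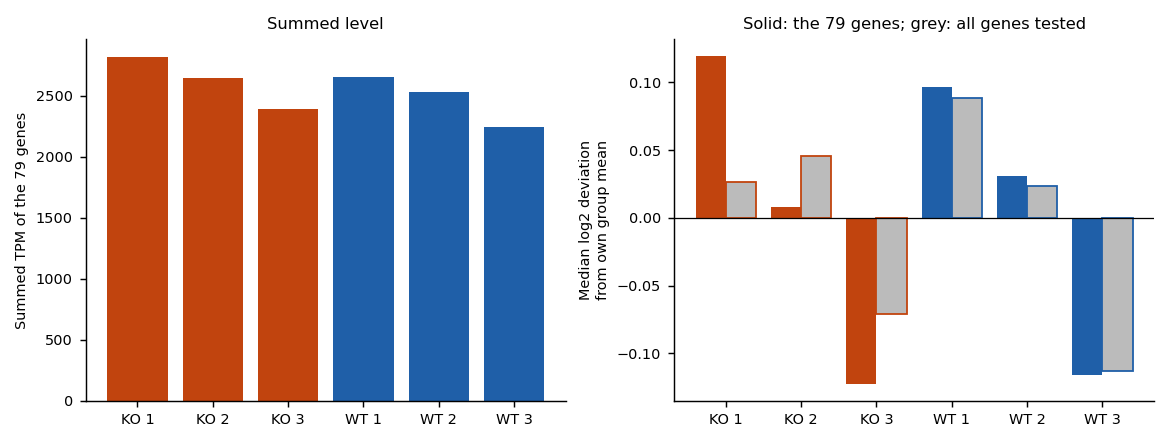
Left, summed TPM of the 79 genes in each library; right, median log2 deviation from the mean of the library's own group, solid for the 79 genes and grey for all genes tested. The third library is lowest in both groups, with sums of 2390 in KO and 2241 in WT, and the solid and grey bars nearly match in WT.

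The RNAs that the organelle itself makes were read next; the sources used here do not say how library preparation treated ribosomal RNA. The small-subunit RNA mt-Rnr1 had 1093, 726 and 975 TPM in KO and 996, 919 and 939 TPM in WT, and the large-subunit RNA mt-Rnr2 had 756, 501 and 839 TPM in KO and 701, 585 and 664 TPM in WT. KO replicate 2 was the lowest library for both, and the groups overlap (log2 difference -0.05 for mt-Rnr1 and 0.07 for mt-Rnr2). Of the 13 mitochondrial messenger RNAs, which the mitochondrial ribosome translates, 3 had a log2 difference above 0 (74.5% of all genes tested), with a median of -0.05. That median was -0.16 with median-ratio scaling and -0.04 with quantile normalization, and 0 of 13 were called. Single libraries turned it: 9 of 13 were above 0 without WT replicate 2 (median 0.06) and 9 without KO replicate 3 (median 0.02), against 0 of 13 without KO replicate 1 (median -0.12) and 0 without WT replicate 1 (median -0.15).

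The other nuclear genes of mitochondrial translation were read from fixed lists. Of 79 listed genes 77 were found and 75 tested, with 0 called by limma. At an unadjusted p below 0.05, 1 was higher and 1 lower, against 2.76% and 0.385% of all genes tested. Above 0 were 47 of 75 (62.7%, median log2 difference 0.03), against 74.5% of all genes tested (median 0.09). With median-ratio scaling 27 of 75 were above 0 (median -0.06), with quantile normalization 25 (median -0.07), and without WT replicate 3 37 (median -0.00), so the direction of these lists turns with the setting as that of the ribosomal genes does. In these 3 settings 49.6%, 49.4% and 59.3% of all genes tested were above 0. Of the 28 tested genes for assembly and ribosomal RNA maturation, 18 were above 0 (median 0.06), and 12 with either scaling (median -0.04 with median-ratio scaling and -0.06 with quantile normalization). Ngrn, a factor for the large ribosomal RNA, had 11.2, 11.3 and 13.0 TPM in KO and 9.79, 9.77 and 8.997 TPM in WT, with the groups apart (log2 difference 0.28, SE 0.12). Mtg2, a GTPase of large-subunit assembly, had a log2 difference of 0.27, and Mterf4, the partner of the methyltransferase Nsun4, one of 0.20. Of the 17 tested translation factors, 9 were above 0 (median 0.00), 4 with median-ratio scaling and 5 with quantile normalization. Among them was Lrpprc, which stabilises mitochondrial messenger RNAs, with a log2 difference of 0.15, and 0.04 with median-ratio scaling. Of the 5 found ribosomal proteins under other names, 4 were above 0 (median 0.03), and 1 with either scaling. These include Dap3, a GTP-binding small-subunit protein, at -0.05, and Aurkaip1 at 0.20.

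Of the 19 tested aminoacyl-tRNA synthetases and amidotransferase subunits, 11 were above 0 (median 0.03), 6 with median-ratio scaling and 3 with quantile normalization. Gatb, a subunit of the enzyme that makes glutaminyl-tRNA in mitochondria, had 19.6, 15.7 and 14.95 TPM in KO and 30.4, 22.5 and 20.5 TPM in WT. All KO libraries were below all WT libraries (log2 difference -0.51, SE 0.18, adjusted p = 0.993, Benjamini-Hochberg). Fars2, the phenylalanyl-tRNA synthetase, had a log2 difference of 0.42 and Nars2, the asparaginyl-tRNA synthetase, one of -0.24, and their groups overlap. Of the 6 genes for mitochondrial transcription, 5 were above 0 (83.3%, median 0.20), against 74.5% of all genes tested (median 0.09). With either scaling 4 of the 6 were above 0. Polrmt, the mitochondrial RNA polymerase, had 6.22, 4.35 and 5.30 TPM in KO and 4.49, 3.53 and 3.53 TPM in WT, overlapping between KO replicate 2 and WT replicate 1 (log2 difference 0.37, SE 0.16). Of the 8 tested regulators of mitochondrial biogenesis, 7 were above 0 (median 0.14), 7 with median-ratio scaling and 5 with quantile normalization. Among them Myc had 1.36, 9.85 and 3 TPM in KO and 0.858, 1.45 and 1.49 TPM in WT, its high value resting on KO replicate 2.

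The proteins of the cytosolic ribosome, set beside them, had 76 of 79 tested genes above 0, with a median log2 difference of 0.14, against 74.5% of all genes tested above 0. Every KO library was above every WT library in 29 of them (36.7%), against 8.23% of all genes tested and 6 of 79 (7.59%) of the mitochondrial ribosomal genes. Of the cytosolic genes 0 were called by limma and 0 had an unadjusted p below 0.05. With median-ratio scaling 52 of these 79 were above 0 (median 0.03), against 26 of the 79 mitochondrial ribosomal genes (median -0.03) and 49.6% of all genes tested. With quantile normalization 67 of the 79 cytosolic genes were above 0 (median 0.05). That compares with 34 of the 79 mitochondrial ribosomal genes (median -0.02) and 49.4% of all genes tested. The difference between both sets of genes was not tested.

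Promoters were read for the genes that RefSeq's table holds (GRCm38.p6, 250 bases before to 50 bases after the start of transcription). It gave 75 promoters for 69 of the 79 genes. Each was searched on both strands for the core of the NRF1 motif (CGCATGCG), the ETS motif bound by GABPA among others (CCGGAAG) and the YY1 motif (AAGATGGCG), for factors known to act on nuclear genes of mitochondria. The NRF1 core stood in 9.33% of the 75 promoters, against 3.86% of the promoters of genes tested and 1.87% of all 32851 promoters. The ETS motif stood in 34.7%, against 18.0% and 8.86%, and the YY1 motif in 10.7%, against 3.23% and 1.40%. At least 1 of the motifs stood in 48.0%, against 23.4% and 11.5%, at a median GC content of 58.7%, against 60.3% and 52.7%. The median log2 difference was 0.07 in the 36 genes with a motif and 0.08 in the 33 without. For the NRF1 core it was 0.10 in genes with it and 0.07 in those without. For the ETS motif these medians were 0.06 and 0.10, and for the YY1 motif 0.05 and 0.07, with no test. A match is a description of letters and not a site.

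Of the 69 genes, 24 share part of this window with a gene that starts on the opposite strand. By promoter this is 34.7% of the 75, against 16.8% of the promoters of genes tested and 10.8% of all promoters. Such pairs include Mrpl47 with Ndufb5, a complex I subunit (193 bases shared), and Mrps12 with Sars2, a synthetase (246 bases). They also include Mrpl49 with Fau, a cytosolic ribosomal protein gene (291 bases), and Mrpl46 with Mrps11 (141 bases), both of the mitochondrial ribosome. Their log2 differences were 0.45 for Mrpl47 and 0.02 for Ndufb5, 0.18 for Mrps12 and -0.01 for Sars2, 0.02 for Mrpl49 and 0.13 for Fau, and 0.08 for Mrpl46 and -0.09 for Mrps11.

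The promoters below were chosen to show each motif once, in genes described above, and 1 shared start. They are Mrpl39 (NRF1 core, chr16:84735195-84735494, minus strand), Mrpl35 (YY1, chr6:71823735-71824034, minus strand), Mrps21 (ETS, chr3:95871465-95871764, minus strand) and Mrps11 (YY1, chr7:78782881-78783180, plus strand, whose end overlaps the start of Mrpl46). They run 5′ to 3′ on the strand of the gene, and capitals mark the motif, on the opposite strand in Mrps21 and Mrps11.
Mrpl39: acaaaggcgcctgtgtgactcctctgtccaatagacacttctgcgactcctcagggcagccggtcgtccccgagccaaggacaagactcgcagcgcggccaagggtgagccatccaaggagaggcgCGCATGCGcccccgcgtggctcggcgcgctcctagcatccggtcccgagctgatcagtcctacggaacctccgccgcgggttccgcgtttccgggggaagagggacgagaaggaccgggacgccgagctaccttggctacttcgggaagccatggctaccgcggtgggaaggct
Mrpl35: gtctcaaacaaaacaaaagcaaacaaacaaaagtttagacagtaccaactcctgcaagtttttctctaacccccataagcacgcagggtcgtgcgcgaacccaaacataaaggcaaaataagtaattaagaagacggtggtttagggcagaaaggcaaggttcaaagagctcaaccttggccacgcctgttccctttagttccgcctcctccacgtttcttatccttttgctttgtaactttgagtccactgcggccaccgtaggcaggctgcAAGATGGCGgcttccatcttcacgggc
Mrps21: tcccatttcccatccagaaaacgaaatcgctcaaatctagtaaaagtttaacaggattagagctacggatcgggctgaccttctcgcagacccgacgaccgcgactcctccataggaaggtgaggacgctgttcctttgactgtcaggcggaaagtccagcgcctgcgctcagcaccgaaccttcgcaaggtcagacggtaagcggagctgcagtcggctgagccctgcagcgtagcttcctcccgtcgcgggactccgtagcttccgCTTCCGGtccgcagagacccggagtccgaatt
Mrps11: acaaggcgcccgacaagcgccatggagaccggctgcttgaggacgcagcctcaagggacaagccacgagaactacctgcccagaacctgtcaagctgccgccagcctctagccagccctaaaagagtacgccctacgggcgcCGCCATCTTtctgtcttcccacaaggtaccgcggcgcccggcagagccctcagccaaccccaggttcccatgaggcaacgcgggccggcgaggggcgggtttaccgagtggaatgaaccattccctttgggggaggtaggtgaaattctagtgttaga

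Their log2 differences were 0.28 for Mrpl39, 0.36 for Mrpl35, 0.21 for Mrps21 and -0.09 for Mrps11. Being picked for display, these genes do not stand for all genes with each motif, whose medians are given above. Malsu1 had no entry in the table.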

How the data were processed

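The 79 genes and all lists were chosen with earlier results of these data known. Per the labels' protocols, RNA was extracted with TRIzol and libraries made with an NEB kit; the submitters' processing notes name fastp, HISAT2, featureCounts, DESeq2, limma and mm10, with no versions. The authors deposited TPM for 54600 rows, each library summing to 1000000. TPM keeps no depth, so depth is unknown, no count model was used, and the 3 libraries per group limit the precision. Strand and shared-read handling are not given in the sources used here.

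Gene symbols and coordinates came from GENCODE M21 (GRCm38, the build of mm10; 51492 of 54323 Ensembl identifiers matched). The 11440 genes that reached 1 TPM in 3 or more of the 6 libraries were fitted together on log2(TPM + 1) by limma 3.58.1 (R 4.3.3, eBayes with a trend of the variance). Two-sided p-values were adjusted over all of them by Benjamini-Hochberg, with 0.05 as the threshold. The step was checked on simulated data, where only a small bias and recovery of large changes were required. This check does not show that small differences would be called. Differences of log2(TPM + 1) understate changes of low genes. Single genes also had an exact two-sided permutation test. Shared sequence was counted in words of 50 bases over annotated transcripts.

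The replicate numbers 1 to 3 occur in each group, and the labels do not state a pairing. Deviations from the group mean correlated between libraries of the same number at 0.157, 0.408 and 0.381, and those of other pairs at -0.37 to 0.03. Such deviations cancel within a group, so positive values for some pairs force negative ones, on balance, for the others. The contrast is therefore no independent evidence of a pairing. The numbers were treated as a pairing from the data, and the replicate block was an alternative fit. Other alternatives were pseudocounts of 0.1 and 5, no filter, a 5 TPM filter, quantile normalization, median-ratio scaling, no or a robust variance trend, and leaving out each library. Named genes were Malsu1, the 4 most abundant of each subunit, the 2 lowest, the 5 with the smallest p in each direction, Mrpl12, the Mrps18 genes, up to 3 of each list, Ndufab1, both ribosomal RNAs and Epas1. The pathway lists were fixed by symbol, and of 79 listed genes Kgd4 (here Mrps36) and Mtrfr gave no row of their own.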

Additional observations from a re-analysis of the deposited data

How the results depend on the processing

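Over the 16 alternatives, limma called 0 of the 79 genes in either direction each time, with a smallest adjusted p of 0.724 to 0.9999 per alternative. The count above 0, 60 of 79, became 26 with median-ratio scaling, 34 with quantile normalization and 26 with the replicate block and median-ratio scaling together, as the median of all genes moved from 0.09 to -0.00 with median-ratio scaling. Leaving out 1 library gave 40 (without WT replicate 3) to 68, and 45 without KO replicate 1. The median log2 difference of the 79 genes ran from -0.03 to 0.14, and minus the median of all genes from -0.07 to 0.03. With the replicate block alone, as if the libraries were paired, the count above 0 was 60, 0 genes were called, and unadjusted p below 0.05 was reached by Malsu1, Mrpl47, Mrpl41, Mrpl39, Mrps21, Mrps7 and Mrpl51; with median-ratio scaling only Malsu1 reached it (log2 difference 0.88). The median of the other mitochondrial translation genes, 0.03, ran from -0.07 to 0.12. Leaving out a library moved Mrps23 between -0.38 and 0.11, the positive value without WT replicate 1; the cause was not tested. Of 793 values recomputed for 50 genes, 775 kept their direction or stayed within the replicate spread, 17 moved beyond it and 1 reversed. A change of sign within the spread counts among the 775, as for Mrpl42 (-0.15 to 0.10) and Mrpl12 (-0.13 to 0.10). These counts therefore do not show that small differences keep their sign. Mrpl23 and Mrpl19 were not tested with a filter of 5 TPM. With TPM alone, counting error cannot be separated from other spread, and genes with shared or overlapping sequence are uncertain.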
